A study of Mus musculus with 24 samples.

Results

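Type I interferon-stimulated genes are the transcripts that cells make more of when interferon reaches them. Here 38 of them, given by name, were followed through an RNA-seq series on bone marrow mononuclear cells of mice. All 38 are among the 24421 genes of the count table, and all 38 were among the 12742 genes with enough counts to be tested, with 329 to 67136 counts each over the series. Every mouse in the series carried Shp2 E76K, a mutation that activates the Shp2 phosphatase (gene Ptpn11). The vehicle group carried it too, so no cells without the change are compared here. The treated groups received ACP196, which blocks BTK (Bruton's tyrosine kinase), or ACP319, which blocks the p110δ subunit of PI3K (phosphoinositide 3-kinase), or both, for 3 weeks. Only the GEO labels were read for the design. Doses, ages, the agent used as vehicle and the way the mutation was introduced are not stated in those labels. Each of the 4 groups has 3 specimens, numbered in the labels as replicates 1 to 3 (vehicle), 4 to 6 (BTK inhibitor), 7 to 9 (PI3K inhibitor) and 10 to 12 (combination). Nothing states that a number stands for 1 mouse of its own, so p-values here reflect variation among specimens that may be technical.

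Type I interferons bind a receptor made of IFNAR1 and IFNAR2, and the kinases JAK1 and TYK2 on its tails switch on signalling inside the cell. STAT2 and IRF9 are part of the complex that then binds the interferon-stimulated response element (ISRE) in promoters and switches on antiviral genes. In bone marrow, plasmacytoid dendritic cells and monocytes are known producers of interferon, and interferon is known to act on blood stem and progenitor cells.

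Libraries differed in ways that touch what follows. Total counts were 16038577 to 22154833 in 11 specimens and 8993950 in BTK inhibitor replicate 5, where Rn45s, the ribosomal RNA precursor, took 15.4% against at most 0.773% elsewhere. BTK inhibitor replicate 6 carries day 30 in its title where the other specimens carry day 24, and the labels do not say what was done on that day. Long genes also stood relatively higher in some libraries than in others, with a slope of log2 level per doubling of gene length of 0.22 ± 0.16 (SD, n = 3) in vehicle, -0.15 ± 0.29 with the BTK inhibitor, -0.28 ± 0.16 with the PI3K inhibitor and 0.21 ± 0.10 for both together. Markers of neutrophils, monocytes, erythroid and B-lineage cells were present in every specimen. The erythroid markers Hba-a1 and Hbb-bt, the defining hemoglobin genes, were at 0 in all of them.

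The members fall into 8 families by what their proteins do, and 17 of the 38 lie in 6 gene clusters (mm10). The IFIT genes share chr19:34550694-34650009. Oas2, Oas3, Oas1g and Oas1a share chr5:120730333-120907525, with Oasl2 and Oasl1 at chr5:114896934-114937911. Parp14, Dtx3l and Parp9 share chr16:35832878-35972621, the Mx genes chr16:97447035-97560901, and Rsad2 and Cmpk2 chr12:26442743-26479837.

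Promoters of the members were searched for the element that this interferon complex is known to bind. Promoter sequence from RefSeq (build GRCm38.p6, from 250 bases before to 50 after the start) matched 28 of the 38 members. Oas2, Mx1, Mx2, Dhx58, Zbp1, Usp18, Parp9, Parp14, Ifi27l2a and Rtp4 were not matched. The core of the ISRE was searched on both strands as GAAANNGAAA, where N is any base. It was found in 14 of the 28 (50%), against 3.99% of the 27025 genes of that table. More than 1 match, counting overlapping ones, was present in 7 of the 28. The GAS element, TTCNNNGAA, which reads the same on both strands and whose last bases, GAA, can also begin an ISRE core, was found in 5 of the 28 (17.9%) against 9.55% of genes, and both elements were found in 3. These matches are letters in a window and say nothing of binding. The stretches below lie upstream of the RefSeq start, are written 5′ to 3′ on the strand of the gene, and carry the ISRE core in capitals (as its reverse complement where it lies on the opposite strand). They are shown for genes with a match that the results turn on: Ifit and Oas genes that stood low in treated groups, and Isg15 and Rsad2, which did not follow the others. Ifit2, Oasl1 and Oasl2 also stood low, and the promoter sequence searched for them held no ISRE core.
Ifit3b (chr19:34607769-34607837, + strand): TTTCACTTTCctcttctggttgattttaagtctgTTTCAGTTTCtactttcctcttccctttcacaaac
Ifit3 (chr19:34583373-34583441, + strand): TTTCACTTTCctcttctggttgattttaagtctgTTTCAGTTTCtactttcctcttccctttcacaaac
Ifit1 (chr19:34640779-34640838, + strand): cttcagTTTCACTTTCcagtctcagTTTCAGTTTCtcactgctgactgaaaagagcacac
Oas1a (chr5:120907526-120907564, - strand): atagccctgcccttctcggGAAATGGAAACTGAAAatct
Oas1g (chr5:120887614-120887650, - strand): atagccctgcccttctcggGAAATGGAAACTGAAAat
Oas3 (chr5:120777700-120777759, - strand): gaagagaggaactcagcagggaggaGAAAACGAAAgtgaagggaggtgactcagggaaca
Isg15 (chr4:156200850-156200909, - strand): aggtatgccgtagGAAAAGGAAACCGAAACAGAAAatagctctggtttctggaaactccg
Rsad2 (chr12:26456538-26456597, - strand): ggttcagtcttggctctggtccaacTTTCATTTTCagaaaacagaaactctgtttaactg
Ifit3 and Ifit3b carry the same letters over this stretch, and Oas1a and Oas1g differ only in where it ends. Isg15 holds 3 overlapping matches, while Oas3 and Rsad2 hold 1 each.

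Levels are given as CPM, the usual depth-scaled count, here relative to the counts on tested genes after TMM scaling (a correction for library composition), and between genes only as CPM per kilobase of gene length. On that scale the highest member in vehicle was Ifitm3, which blocks virus entry from endosomes, at 547 CPM per kb. Ifi27l2a followed at 169.8, then the galectin-binding protein gene Lgals3bp at 49.7, Isg15 at 47.6 and the peptide transporter gene Tap1 at 41.9. The lowest was Mx2 at 0.967 CPM per kb. Vehicle had the highest group mean of the 4 groups for 34 of the 38 members, against 29.2% of all tested genes, and the lowest for none of the 38. The combination group had the lowest mean for 17 members (20.4% of all tested genes), the PI3K inhibitor group for 13 (31.4%) and the BTK inhibitor group for 8 (21%). Taking each specimen's median over the members, relative to the vehicle mean on the log2 scale, vehicle replicates stood at 0.06, -0.40 and 0.22. BTK inhibitor replicates stood at -1.07, -1.22 and -0.26, PI3K inhibitor replicates at -0.79, -1.10 and -0.67, and combination replicates at -0.75, -0.71 and -0.92. Only BTK inhibitor replicate 6, the specimen of the other title day, lay above a vehicle replicate.

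**Figure D1:**
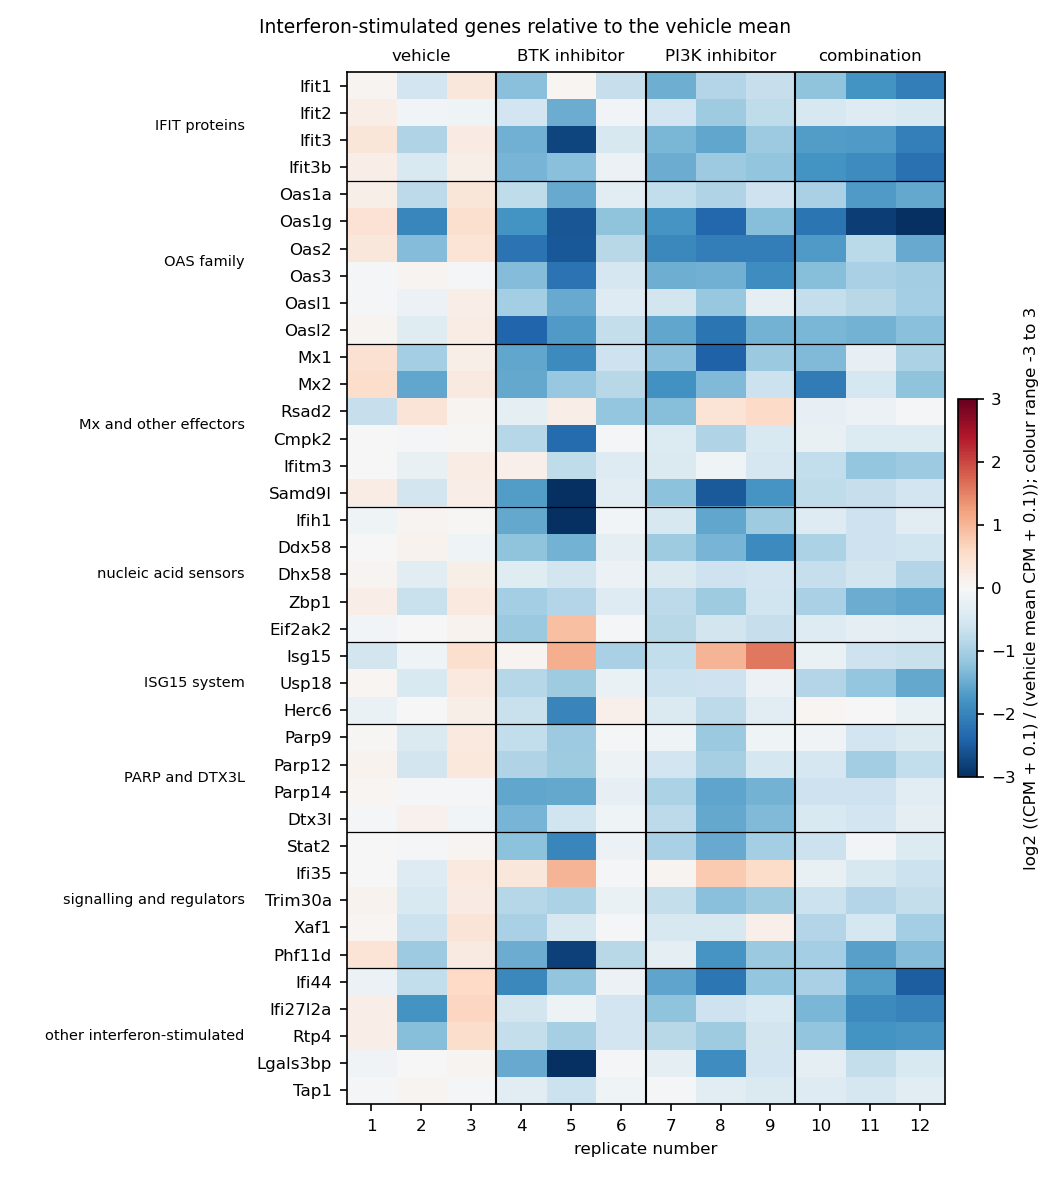
Log2 level of each of the 38 members (rows, by family) in each of the 12 specimens (columns, by group) relative to the mean of vehicle. Most rows are below the vehicle mean in the treated groups, and BTK inhibitor replicate 6 and the rows of Isg15, Ifi35 and Rsad2 depart from that.

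The first comparison asks what the BTK inhibitor alone did. The members' median log2 difference from vehicle was -0.76, with 35 of 38 negative, against a median of -0.02 and 51.2% negative over all tested genes. None of the 38 passed edgeR's quasi-likelihood F-test, Benjamini-Hochberg adjusted, at 0.05, and 0% of all tested genes did. At an unadjusted p under 0.05, 15 members were lower and 0 higher (8.97% of all tested genes were lower), while DESeq2 called 4 lower (1.34%) and limma voom 30 (12.2%). In 9 members every treated specimen lay below every vehicle specimen (9.61% of all tested genes), and in none did every one lie above (8.92%). The 4 called by DESeq2 were Oas1g, Oas2, Oas3 and Oasl2, all of the OAS family. Without replicate 6 edgeR called 24 members lower (13.3% of all tested genes, with 16.1% higher) and the median was -1.10; without any other single specimen it called 0.

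The PI3K inhibitor alone gave a median of -0.80, and 35 of 38 members were negative (all tested genes: -0.01 and 50.5%). By edgeR's quasi-likelihood F-test (Benjamini-Hochberg adjusted) 8 members fell, with adjusted p from 0.0394 to 0.0436, and 0 rose (4.84% of all tested genes). These were Oas2, Oas3, Oasl2, Ddx58, Parp14, Dtx3l, Trim30a and Ifit3b, 21.1% of the members against 5.82% of all tested genes. At an unadjusted p under 0.05, 20 were lower (17.6% of all tested genes). The groups did not overlap in 23 members, all with the inhibitor below, against 26.3% of all tested genes. The calls rest on the exact set of libraries: there were 0 without any 1 of all 3 vehicle and all 3 combination replicates, or of PI3K inhibitor replicates 8 and 9. There were 20 without BTK inhibitor replicate 5 (16.7% of all tested genes), 16 without BTK inhibitor replicate 6 (12.9%) and 7 without PI3K inhibitor replicate 7 (6.61%), where Ifit3b no longer passed. DESeq2 called 16 lower (12.7%) and limma voom 29 (18.4%). There were also 0 with the gene length offset described below, and 0 with the presence of Y-linked transcripts as a covariate (above 10 CPM in 2 of 3 vehicle specimens and 1 of 3 in each treated group). The median stayed between -1.09 and -0.72 when 1 of the 12 specimens was left out.

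With both inhibitors all 38 members were below vehicle, with a median of -0.76 (all tested genes: 0.00, 49.8% negative), though Rsad2 turned positive by limma voom and without vehicle replicate 2, and Herc6 without vehicle replicate 3 or combination replicate 12. EdgeR's quasi-likelihood F-test (Benjamini-Hochberg adjusted) called 0 members, and 0% of all tested genes. At an unadjusted p under 0.05, 21 members were lower and 0 higher, against 1.51% and 3.41% of all tested genes, and DESeq2 called 5 lower (0.0628%) and limma voom 24 (3.75%). In 25 members all 3 combination specimens lay below all 3 vehicle specimens, against 9.47% of all tested genes, and in 0 above (9.32%). The 5 called by DESeq2 were Ifit1, Ifit3, Ifit3b, Oas1g and Zbp1. Leaving out any 1 of the 12 specimens left 0 edgeR calls and a median between -0.95 and -0.64.

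Set together, the mean of the 3 treated groups was below vehicle for 36 of 38 members, with a median of -0.82 (all tested genes: 0.00, 50% negative). No member and 0% of all tested genes passed edgeR's quasi-likelihood F-test (Benjamini-Hochberg adjusted), 27 were lower at an unadjusted p under 0.05 (12.4%), and DESeq2 called 19 lower (3.22%) and limma voom 33 (15.8%). All 9 treated specimens lay below all 3 vehicle specimens for Oas3, Oasl1, Oasl2, Cmpk2, Ddx58, Parp14, Dtx3l, Stat2 and Tap1, 9 of 38 members against 2.99% of all tested genes, and above for 0 (2.52%). These comparisons share the vehicle specimens, so their values stand side by side and are not independent of each other. Without BTK inhibitor replicate 6, edgeR called 27 members lower in this comparison (10.6% of all tested genes).

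**Figure D2:**
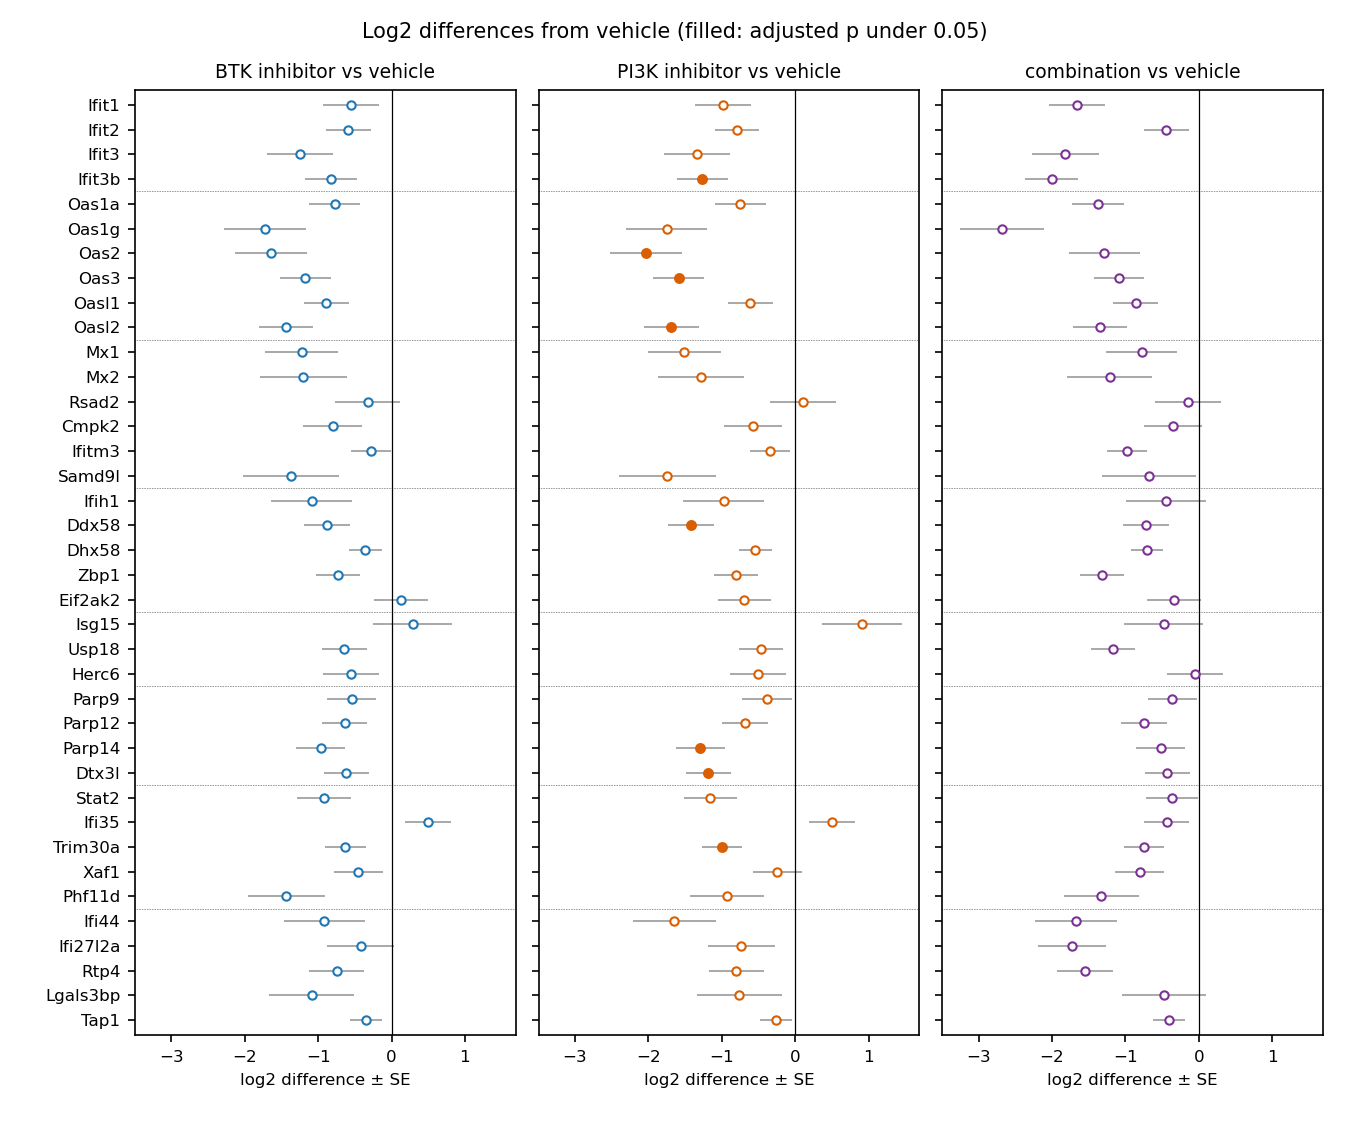
Log2 difference from vehicle of each member in the 3 comparisons, with bars of 1 standard error from the edgeR fit and members grouped by family. Nearly all points lie left of 0, and the members that pass the adjusted threshold are those of the PI3K inhibitor comparison.

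The OAS family makes the oligoadenylate that activates RNase L when double-stranded RNA is present, and it had the lowest family median with either single inhibitor. That median was -1.31 with the BTK inhibitor, -1.64 with the PI3K inhibitor and -1.32 for both together, with all 6 members negative each time. Of the 6, 3 fell with the PI3K inhibitor (5.82% of all tested genes). Oasl2, one of the OAS-like genes, was at 128, 94.7 and 141 CPM in vehicle, 23.05, 37.6 and 73.4 CPM with the BTK inhibitor, 41.3, 26.5 and 45.2 CPM with the PI3K inhibitor and 46.7, 45.5 and 51.01 CPM with the combination. With the PI3K inhibitor its mean fell from 121 ± 23.97 CPM (SD, n = 3) to 37.6 ± 9.87 (log2 -1.69 ± 0.37 SE), and its log2 differences were -1.44 ± 0.37 with the BTK inhibitor and -1.34 ± 0.37 for both together. All 9 treated specimens were below the lowest vehicle value, and BTK inhibitor replicate 6 was the highest of them. Oas3, the largest enzyme of the family, was at 174, 192 and 174 CPM in vehicle, 72.6, 38.8 and 128 CPM with the BTK inhibitor, 64.8, 66.2 and 49.5 CPM with the PI3K inhibitor and 74.7, 92.5 and 87.2 CPM with the combination. Its vehicle values sat within a narrow band and the treated ones stayed under it, so that the group means were 180.4 ± 10.4, 79.7 ± 44.9, 60.2 ± 9.28 and 84.8 ± 9.14 CPM. Oas3 fell with the PI3K inhibitor (log2 -1.58 ± 0.35 SE). Its differences were -1.17 ± 0.34 with the BTK inhibitor and -1.09 ± 0.34 for both together.

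Oas2 was less even within vehicle, where it was at 67.7, 21.6 and 72.02 CPM. It fell to 14.04, 12.7 and 12.7 CPM with the PI3K inhibitor (log2 -2.03 ± 0.49 SE). With the BTK inhibitor it was at 11.6, 9.09 and 30.3 CPM and with the combination at 16.6, 30.7 and 18.8, so that both of these groups overlap vehicle through vehicle replicate 2. The enzyme genes Oas1a and Oas1g share 57.6% and 45.7% of their 50-base words with other transcripts, so how reads were split between near-identical copies makes their counts uncertain. Oas1g was at 23.3, 4.37 and 23.8 CPM in vehicle, 4.89, 2.83 and 7.43 CPM with the BTK inhibitor, 5.01, 3.27 and 7.03 CPM with the PI3K inhibitor and 3.70, 2.36 and 1.96 CPM with the combination. It had the lowest difference of any member with the combination (log2 -2.69 ± 0.58 SE), where its 3 specimens lay below the vehicle ones, and differences of -1.72 ± 0.56 with the BTK inhibitor and -1.75 ± 0.55 with the PI3K inhibitor. Vehicle replicate 2 was near the treated specimens. Oas1a was at 73.8, 38.1 and 85.1 CPM in vehicle, 38.98, 22.8 and 52.6 CPM with the BTK inhibitor, 39.6, 34.9 and 43.01 CPM with the PI3K inhibitor and 33.5, 20.1 and 22.6 CPM with the combination, with a log2 difference of -1.37 ± 0.35 SE for the combination against -0.78 ± 0.35 and -0.75 ± 0.35 for the BTK and PI3K inhibitors. Oasl1, which restrains translation of Irf7, was between 19.8 and 25.4 CPM in vehicle and between 7.67 and 18.3 in the treated specimens, with no overlap.

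IFIT proteins bind viral RNA that lacks the marks of host messages. Their 4 genes had medians of -0.71 with the BTK inhibitor, -1.13 with the PI3K inhibitor and -1.74 for both together. With both, all 4 lay below vehicle in every specimen (9.47% of all tested genes). Ifit3b was at 12.3, 7.72 and 12.1 CPM in vehicle, 3.98, 4.44 and 9.38 CPM with the BTK inhibitor, 3.73, 5.01 and 4.62 CPM with the PI3K inhibitor and 2.99, 2.82 and 2.18 CPM with the combination. It fell with the PI3K inhibitor (log2 -1.26 ± 0.35 SE) and stood lowest with the combination (log2 -2.01 ± 0.36 SE), where edgeR's quasi-likelihood F-test (Benjamini-Hochberg adjusted) gave an adjusted p = 0.448 and DESeq2 an adjusted p = 0.000156. The PI3K inhibitor and combination specimens did not overlap vehicle, while BTK inhibitor replicate 6 lay above vehicle replicate 2. Ifit3, its near-identical neighbour and the partner of Ifit1, was at 25.1, 10.5 and 23.1 CPM in vehicle, 7.12, 2.83 and 13.9 CPM with the BTK inhibitor, 7.51, 6.55 and 9.18 CPM with the PI3K inhibitor and 6.03, 5.99 and 4.62 CPM with the combination. Its differences were -1.25 ± 0.45, -1.34 ± 0.45 and -1.82 ± 0.46 SE in the order BTK inhibitor, PI3K inhibitor and combination. None passed in edgeR, DESeq2 called the last 2, and limma voom called all 3. Ifit3 and Ifit3b share 51.2% and 45% of their 50-base words with other transcripts, so their counts are uncertain one by one. Ifit2 departed from the others with the combination: it was at 35.01, 29.2 and 27.9 CPM in vehicle, 20.4, 10.9 and 29.2 CPM with the BTK inhibitor, 20.5, 14.6 and 18.1 CPM with the PI3K inhibitor and 22.1, 23.6 and 22.3 CPM with the combination. Its difference was -0.79 ± 0.30 SE with the PI3K inhibitor, then -0.44 ± 0.30 for both together. Ifit1 was at 23.1, 14.5 and 27.6 CPM in vehicle, 9.03, 22.8 and 13.4 CPM with the BTK inhibitor, 7.76, 11.8 and 13.4 CPM with the PI3K inhibitor and 9.35, 6.25 and 5.06 CPM with the combination, and BTK inhibitor replicate 5 lay among the vehicle values.

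Among the nucleic acid sensors, which detect foreign RNA or DNA, Ddx58 was the member that edgeR called, with the PI3K inhibitor (5.82% of all tested genes). Limma voom called 4 of the 5 lower with the BTK inhibitor (12.2% of all tested genes), all 5 with the PI3K inhibitor (18.4%) and 3 when both were given (3.75%). Ddx58 encodes RIG-I, the sensor of RNA with a triphosphate end. It was at 62.9, 68.2 and 57.8 CPM in vehicle, 27.1, 23.4 and 51.7 CPM with the BTK inhibitor, 30.2, 23.8 and 16.7 CPM with the PI3K inhibitor and 32.8, 40.9 and 41.3 CPM with the combination. Between vehicle and the PI3K inhibitor its mean fell from 62.97 ± 5.22 CPM to 23.6 ± 6.78 (log2 -1.42 ± 0.31 SE), and all 9 treated specimens were below vehicle. Zbp1, a sensor of Z-form nucleic acid that can trigger necroptosis, was at 40.02, 22.1 and 42.7 CPM in vehicle, 17.3, 18.98 and 26.7 CPM with the BTK inhibitor, 20.3, 16.6 and 22.9 CPM with the PI3K inhibitor and 17.9, 12.3 and 11.8 CPM with the combination. Its difference was -1.32 ± 0.30 SE with the combination, where the groups did not overlap, and -0.73 ± 0.30 and -0.81 ± 0.30 with the BTK and PI3K inhibitors. Eif2ak2, the gene of the kinase PKR that stops translation, was at 56.7, 59.3 and 64.2 CPM in vehicle, 27.8, 112 and 58.6 CPM with the BTK inhibitor, 33.6, 40.8 and 37.1 CPM with the PI3K inhibitor and 45.7, 49.3 and 47.5 CPM with the combination. BTK inhibitor replicate 5 had the highest value of all, and without that specimen its difference with the BTK inhibitor moved from 0.13 to -0.47. Ifih1 and Dhx58, the genes of the related RNA helicases MDA5 and LGP2, had differences from -1.09 (Ifih1) to -0.35 (Dhx58) in the single-inhibitor comparisons.

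EdgeR called none of the 6 direct effectors against vehicle. Limma voom called 4 lower with the BTK inhibitor (12.2% of all tested genes), 4 with the PI3K inhibitor (18.4%) and 3 with both (3.75%). Without BTK inhibitor replicate 6 edgeR called 3 lower with the BTK inhibitor (13.3% of all tested genes). The guanosine triphosphatase gene Mx1 was at 11.9, 4.21 and 9.89 CPM in vehicle, 2.87, 2.22 and 5.64 CPM with the BTK inhibitor, 3.56, 1.54 and 3.99 CPM with the PI3K inhibitor and 3.42, 7.33 and 4.43 CPM with the combination. Its difference was -1.51 ± 0.49 SE with the PI3K inhibitor, with no overlap, and -1.23 ± 0.49 and -0.78 ± 0.48 with the BTK inhibitor and the combination. Ifitm3 was at 351, 301 and 410.4 CPM in vehicle, 394, 209.6 and 269.5 CPM with the BTK inhibitor, 264, 325 and 251.2 CPM with the PI3K inhibitor and 213, 159.7 and 167 CPM with the combination. The combination had the lowest group mean (log2 -0.98 ± 0.28 SE) and its specimens lay below all vehicle specimens, while both single inhibitors overlapped vehicle (-0.28 ± 0.27 and -0.34 ± 0.27). Samd9l, an antiviral gene that is also a myeloid tumour suppressor, was at 235, 139 and 233 CPM in vehicle, 63.2, 9.49 and 161 CPM with the BTK inhibitor, 86.7, 35.2 and 59.2 CPM with the PI3K inhibitor and 119, 125 and 136 CPM with the combination. With the PI3K inhibitor its difference was -1.74 ± 0.66 SE and with the combination -0.68 ± 0.65. Rsad2, which encodes the radical enzyme viperin, went its own way at 75.7, 159.8 and 129.7 CPM in vehicle, 98.7, 139 and 54.5 CPM with the BTK inhibitor, 50.3, 163 and 180.3 CPM with the PI3K inhibitor and 103, 108 and 119 CPM with the combination. Its specimens overlapped in every comparison with vehicle, with differences of -0.33 ± 0.45, 0.11 ± 0.45 and -0.15 ± 0.45 in the order BTK inhibitor, PI3K inhibitor and combination. Mx2 and Cmpk2, the nucleotide kinase gene beside Rsad2, had differences between -1.28 and -0.35 over the 3 comparisons.

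PARP and DTX3L proteins attach ADP-ribose or ubiquitin to other proteins, and Parp9 and Dtx3l work as a complex. Of the 4, 2 fell with the PI3K inhibitor (5.82% of all tested genes). Parp14 was at 85.3, 79.9 and 79.4 CPM in vehicle, 27.7, 28.1 and 69.2 CPM with the BTK inhibitor, 42.3, 27.1 and 30.4 CPM with the PI3K inhibitor and 53.2, 52.9 and 64.7 CPM with the combination. With the PI3K inhibitor its mean fell from 81.5 ± 3.24 CPM to 33.3 ± 8.01 (log2 -1.29 ± 0.34 SE), and its differences were -0.96 ± 0.33 with the BTK inhibitor and -0.52 ± 0.33 for both together. Dtx3l was at 65.3, 74.6 and 64.98 CPM in vehicle, 25.9, 45.2 and 62.3 CPM with the BTK inhibitor, 39.4, 23.4 and 27.2 CPM with the PI3K inhibitor and 49.99, 45.5 and 56.7 CPM with the combination. It fell with the PI3K inhibitor (log2 -1.19 ± 0.31 SE), and no treated specimen of either gene reached the vehicle range. Parp9, whose exons overlap those of Dtx3l by 334 bases on the other strand, was at 63.3, 45.8 and 75.2 CPM in vehicle, 36.9, 28.7 and 60.4 CPM with the BTK inhibitor, 56.5, 28.3 and 56.4 CPM with the PI3K inhibitor and 56.8, 41.4 and 45.4 CPM with the combination. In this library type, which does not mark strand, reads in that stretch cannot be assigned to Parp9 or Dtx3l. The differences of Parp9 were -0.54 ± 0.34, -0.38 ± 0.34 and -0.36 ± 0.33 in the same order, and its groups overlapped. Parp12 had differences of -0.64 ± 0.31, -0.68 ± 0.31 and -0.75 ± 0.31.

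Of the regulators, Trim30a, a restrainer of Toll-like receptor signalling, was at 127, 86.2 and 139 CPM in vehicle, 65.00, 61.2 and 102 CPM with the BTK inhibitor, 71.3, 49.3 and 55.7 CPM with the PI3K inhibitor and 74.8, 64.3 and 71.3 CPM with the combination. It fell with the PI3K inhibitor (log2 -0.999 ± 0.27 SE), and its differences were -0.63 ± 0.27 with the BTK inhibitor and -0.74 ± 0.27 for both together. Stat2, part of the complex that binds the ISRE, was at 50.6, 49.3 and 53.9 CPM in vehicle, 21.8, 13.1 and 45.4 CPM with the BTK inhibitor, 25.9, 17.97 and 25.1 CPM with the PI3K inhibitor and 32.7, 48.6 and 38.3 CPM with the combination. Its 9 treated specimens lay below vehicle, yet the difference with the PI3K inhibitor did not pass (log2 -1.16 ± 0.36 SE, and adjusted p = 0.0545 by edgeR's quasi-likelihood F-test, Benjamini-Hochberg adjusted). Xaf1, which promotes cell death, had differences of -0.45 ± 0.33, -0.24 ± 0.33 and -0.80 ± 0.33, and Phf11d -1.43 ± 0.53, -0.93 ± 0.51 and -1.33 ± 0.51. Neither gene was called by edgeR or DESeq2, and limma voom called both lower except Xaf1 with the PI3K inhibitor.

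Isg15 and Ifi35 did not go with the rest. Isg15, the ubiquitin-like protein that is joined to others during the response, was at 24.6, 33.1 and 50.2 CPM in vehicle, 37.97, 76.7 and 18.3 CPM with the BTK inhibitor, 21.6, 73.7 and 108 CPM with the PI3K inhibitor and 31.5, 23.5 and 22.5 CPM with the combination. The PI3K inhibitor group held both the highest value and one below every vehicle specimen, and the difference was 0.91 ± 0.55 SE, with 0.29 ± 0.54 for the BTK inhibitor and -0.48 ± 0.54 for the combination. Ifi35 was at 27.8, 21.4 and 34.4 CPM in vehicle, 35.5, 56.7 and 26.6 CPM with the BTK inhibitor, 29.6, 48.4 and 40.6 CPM with the PI3K inhibitor and 24.02, 19.98 and 17.9 CPM with the combination, with 0.50 ± 0.31, 0.50 ± 0.31 and -0.43 ± 0.31 in that order. Both are short genes, and with a gene length offset the differences with the PI3K inhibitor became -0.20 for Isg15 and -0.11 for Ifi35. Usp18, which removes Isg15 and blocks the receptor, was at 22.9, 16.01 and 26.9 CPM in vehicle, 12.1, 10.5 and 19.1 CPM with the BTK inhibitor, 14.04, 14.2 and 19.3 CPM with the PI3K inhibitor and 11.9, 9.84 and 7.53 CPM with the combination. The combination specimens lay below vehicle (log2 -1.17 ± 0.30 SE), and the single inhibitors were at -0.64 ± 0.30 and -0.47 ± 0.30. Herc6, the gene of the ligase that attaches Isg15, had differences of -0.55 ± 0.38, -0.51 ± 0.38 and -0.05 ± 0.38.

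Rtp4 and Ifi27l2a were among the members furthest below vehicle with the combination. Rtp4, a receptor transport protein gene, was at 70.9, 25.4 and 89.9 CPM in vehicle, 37.8, 31.3 and 41.6 CPM with the BTK inhibitor, 34.9, 29.4 and 42.6 CPM with the PI3K inhibitor and 27.1, 17.9 and 18.4 CPM with the combination, and had a log2 difference of -1.55 ± 0.38 SE for the combination, -0.75 ± 0.38 for the BTK inhibitor and -0.80 ± 0.37 for the PI3K inhibitor. Ifi27l2a was at 173, 43.3 and 233 CPM in vehicle, 102, 134 and 100.3 CPM with the BTK inhibitor, 64.6, 96.9 and 109 CPM with the PI3K inhibitor and 58.3, 39.9 and 37.4 CPM with the combination, with -1.73 ± 0.47 SE for the combination. Vehicle replicate 2 was low for both genes, at 25.4 and 43.3 CPM, where it lay within the combination range, so that the groups overlapped. Without vehicle replicate 3 the difference of Ifi27l2a with the BTK inhibitor went from -0.42 to 0.05. Ifi44, Lgals3bp and Tap1 were negative in all 3 comparisons, from -1.68 for Ifi44 with the combination to -0.26 for Tap1 with the PI3K inhibitor.

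**Figure D3:**
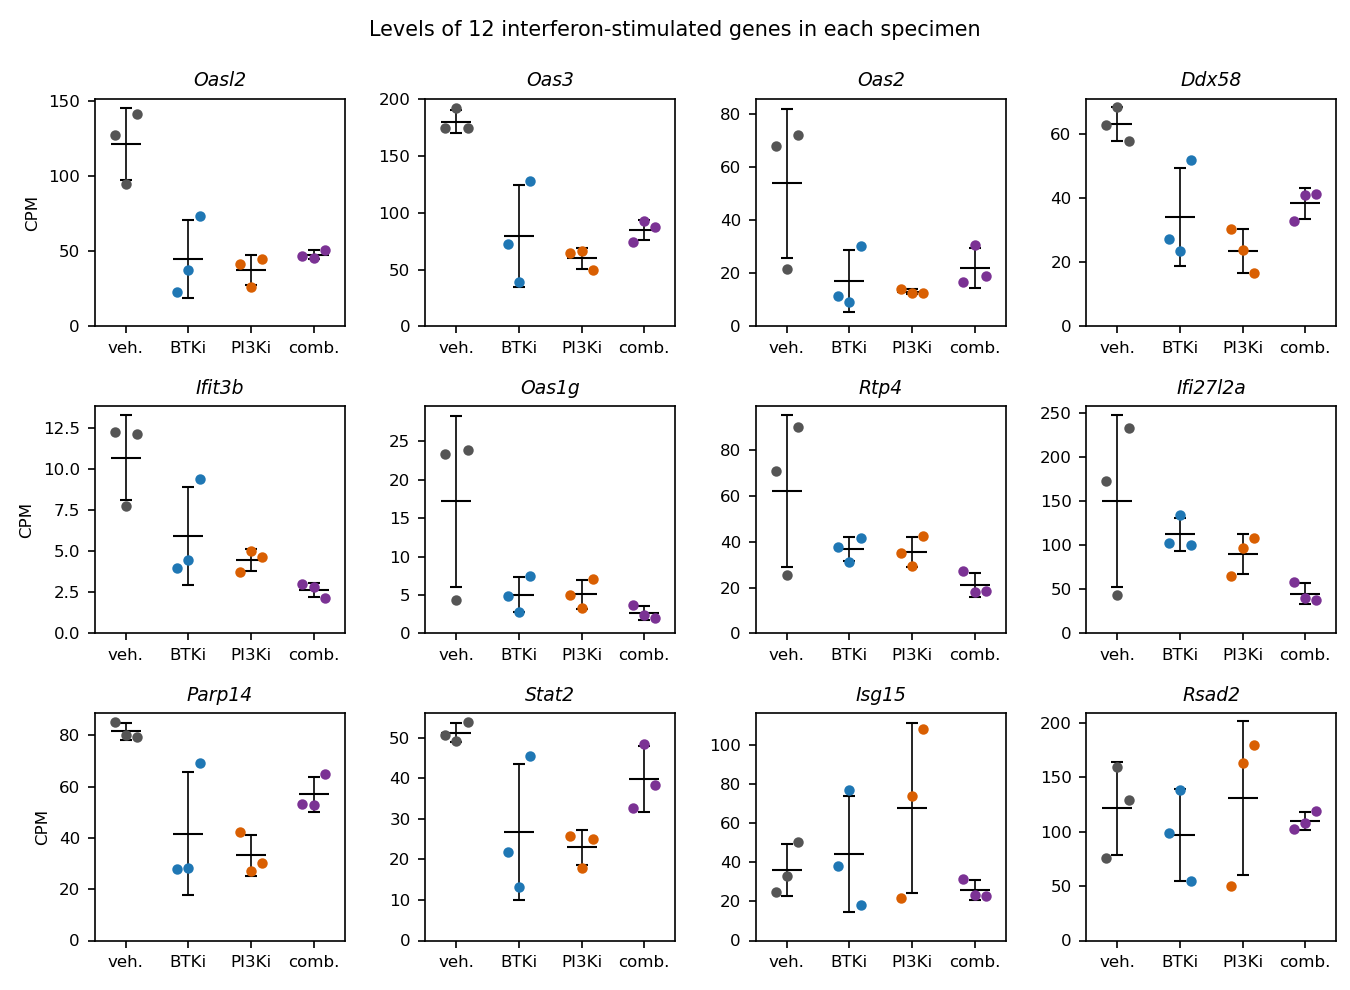
CPM in each specimen of selected members, with points for specimens, a bar for the group mean and a separate linear axis for each gene. Oasl2, Oas3, Ddx58 and Parp14 keep all treated specimens below vehicle, and Isg15 spreads from 18.3 to 108 CPM among treated specimens.

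The treated groups were then compared with each other. Between the PI3K inhibitor and the BTK inhibitor edgeR's quasi-likelihood F-test (Benjamini-Hochberg adjusted) called 0 members (0% of all tested genes), and the members' median was -0.08. At an unadjusted p under 0.05 only Eif2ak2 was lower (4.2% of all tested genes) and 0 were higher (2.01%). No member had all specimens of 1 group below (2.46%) or above (3.77%) those of the other. The 95% interval of the difference held 0 for 37 of 38 members, with a half-width from 0.48 to 1.39 and a median of 0.78 on the log2 scale. For Oasl2 it ran from -1.03 to 0.53, so that a difference of about the size seen against vehicle lies outside it, whereas for Isg15 it ran from -0.55 to 1.80. Adding the PI3K inhibitor to the BTK inhibitor gave a median of -0.04 with 20 of 38 negative, 0 calls (0% of all tested genes) and at an unadjusted p under 0.05 5 members lower (13.9%) and 0 higher (6.26%). The groups did not overlap for 4 members, all lower (6.73%, and 8.07% higher): Ifit3b, Ifi35, Ifi27l2a and Rtp4. DESeq2 called 1 of them, Ifit3b (4.04% of all tested genes lower), and without BTK inhibitor replicate 6 edgeR called 1 member lower (14.7% of all tested genes) and 7 higher (12.1%). Adding the BTK inhibitor to the PI3K inhibitor gave a median of -0.05 with 20 of 38 negative (49.1%), 0 calls (0%), and at an unadjusted p under 0.05 5 members lower (14.7%) and 4 higher (14%).

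In that last comparison non-overlap was about as frequent among the members as among all genes, in both directions. All combination specimens lay below all PI3K inhibitor specimens for Ifit3, Ifit3b, Oas1a, Ifitm3, Usp18, Ifi35, Xaf1, Ifi27l2a and Rtp4, 9 of 38 members against 24.6% of all tested genes. They lay above for 12 members (26.5%), among them Oas2, Oas3, Oasl2, Ddx58, Parp14, Dtx3l and Stat2. The 9 of the first set have gene lengths of 648 to 2598 bases, and the 12 of the second set 3136 to 7251 bases. Across the 38 members the difference between the combination and the PI3K inhibitor had Pearson's r of 0.84 with log2 gene length, and across all tested genes 0.68. This is a description across genes, which share libraries.

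The interaction asks whether the effect of 1 inhibitor was the same with and without the other. By edgeR's quasi-likelihood F-test (Benjamini-Hochberg adjusted) 7 members had a positive interaction (12% of all tested genes) and 1 a negative one (15.6%), and the median was 0.78 (all tested genes: 0.05). The positive ones were Oas2 (log2 2.39 ± 0.68 SE), Oasl2 (1.78 ± 0.52), Parp14 (1.73 ± 0.47), Stat2 (1.71 ± 0.51), Oas3 (1.67 ± 0.48), Ddx58 (1.58 ± 0.44) and Dtx3l (1.38 ± 0.43), with adjusted p from 0.0221 to 0.0334 by that edgeR F-test (Benjamini-Hochberg adjusted). For each of them the combination stood higher than the sum of the single differences. The negative one was Ifi35 (-1.43 ± 0.44 SE, adjusted p = 0.0302 by the same edgeR test). With the gene length offset all 8 calls ended and the values were 1.90 for Oas2, 1.49 for Oasl2, 0.55 for Parp14, 1.04 for Stat2, 0.88 for Oas3, 0.73 for Ddx58, 0.46 for Dtx3l and -0.41 for Ifi35. They also ended without vehicle replicate 2, without PI3K inhibitor replicate 8 or 9, and without combination replicate 11 or 12. Without vehicle replicate 1 those of Oas2, Oasl2, Dtx3l, Stat2 and Ifi35 ended, without vehicle replicate 3 those of Oas2, Dtx3l and Stat2, without BTK inhibitor replicate 4 those of Oas2, Oas3, Ddx58, Dtx3l and Stat2, and without combination replicate 10 that of Dtx3l.

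Because the libraries differed by gene length, the members were split at the middle of their lengths, into 19 of 648 to 2908 bases and 19 of 2950 to 7251 bases. With the combination the shorter ones had a median of -1.32 and the longer ones -0.45, while all tested genes of these lengths had 0.01 and -0.02. With the PI3K inhibitor the medians were -0.76 and -0.999 beside 0.39 and -0.41 for all tested genes of these lengths, and 7 of the 8 members that fell were among the longer. With the BTK inhibitor they were -0.75 and -0.80 beside 0.25 and -0.28. Set against genes of like length, the shorter members were further below in each comparison. With the length offset, which gives each library its own smooth trend on gene length, the medians of the shorter and longer members were -0.87 and -0.55 with the BTK inhibitor, -0.96 and -0.55 with the PI3K inhibitor and -1.33 and -0.47 with the combination. The interaction medians, 0.15 and 1.38 without the offset, were 0.65 and 0.55 with it.

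**Figure D4:**
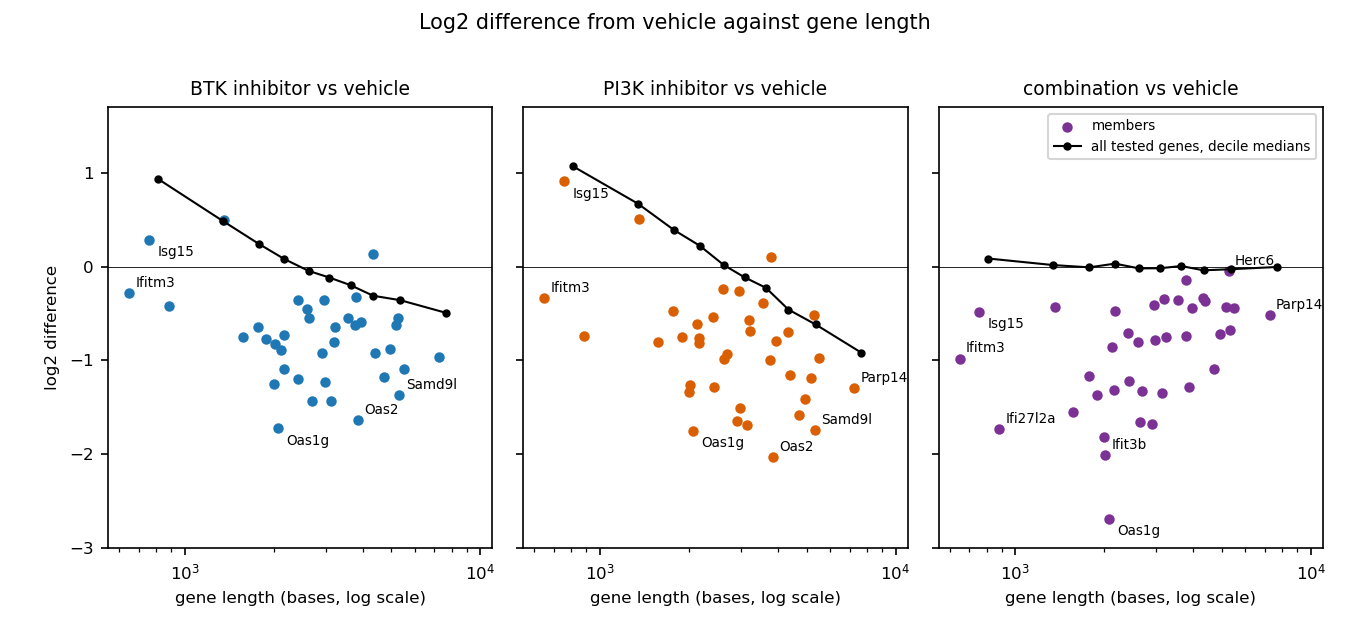
Log2 difference from vehicle against gene length (log axis) in the 3 comparisons, with members as points and the median of all tested genes in length bins as a line. In the single-inhibitor panels the line itself slopes down with length, and in all 3 panels most members lie below it.

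With the offset the median over all 38 members was -0.75 with the BTK inhibitor, -0.86 with the PI3K inhibitor and -0.79 for both together, and edgeR called 0 members in each. Among those that had fallen with the PI3K inhibitor the offset values were -1.11 for Oas3, -1.57 for Oasl2, -1.76 for Oas2, -1.48 for Ifit3b, -0.92 for Ddx58, -0.74 for Trim30a, -0.66 for Dtx3l and -0.55 for Parp14, the last less than the 1.29 by which it fell before. Ifitm3 went the other way, from -0.34 to -1.34, and Ifi27l2a from -0.74 to -1.56. With the offset but no BTK inhibitor replicate 5, 21 members were called lower with the PI3K inhibitor (9.05% of all tested genes), Ifitm3 and Ifi27l2a included and Parp14 not. In the mean of the treated groups that setting called 15 (1.52%).

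The members also varied together within groups. Over the 12 specimens, each taken as its deviation from its group mean on the log2 CPM scale, the median Pearson's r over the 703 pairs of members was 0.48, with 547 pairs positive, against a median of 0.003 over all tested genes. Without BTK inhibitor replicate 5 it was 0.49 with 563 pairs positive. These are descriptions over 12 specimens that share depth and library quality. Within families the median was 0.67 for PARP and DTX3L, 0.59 for OAS with 15 of 15 pairs positive, 0.45 for IFIT and 0.05 for the Mx proteins and other effectors. Among the highest pairs were Cmpk2 with Herc6 at 0.98 and Oas1g with Rtp4 at 0.96, and the lowest was Ddx58 with Isg15 at -0.88. The largest deviations of Cmpk2 (-1.237 and 1.014) and Herc6 (-1.155 and 0.988) were those of BTK inhibitor replicates 5 and 6. Ddx58 has 4943 bases and Isg15 756, and the part of gene length in this pair was not tested. Ifit3, Parp12 and Usp18 followed the mean of the other members most closely, at 0.93, 0.92 and 0.91. Rsad2, Isg15, Ifi35 and Eif2ak2 ran against it, at -0.57, -0.42, -0.32 and -0.23. Vehicle replicate 2 had the lowest value of its group for 26 of 38 members, BTK inhibitor replicate 6 the highest for 31 and replicate 5 the lowest for 24.

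**Figure D5:**
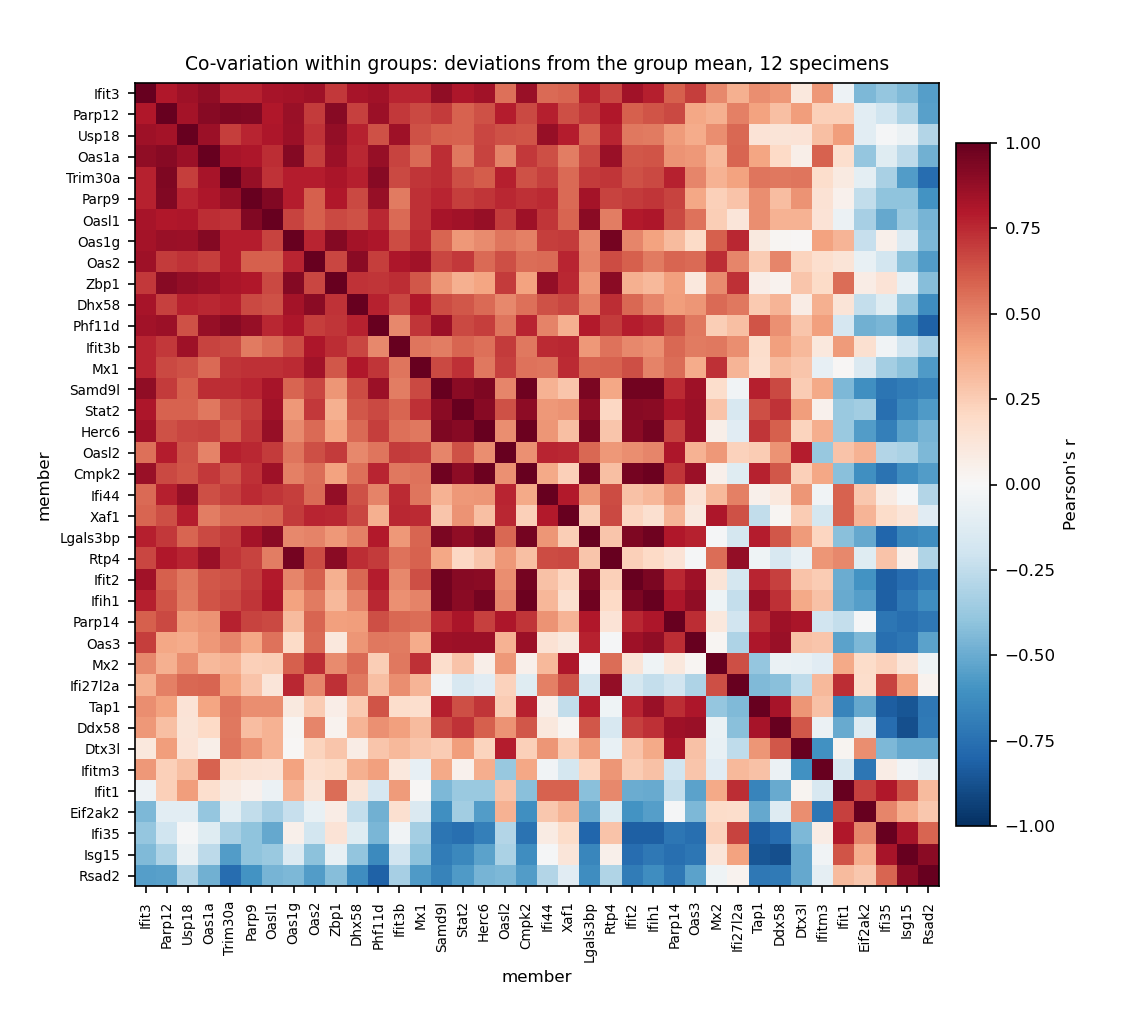
Pearson's r between members over 12 specimens, from log2 CPM deviations from the group means. Members are ordered along both axes by their r with the mean of the other members, highest first, and not by family. Pairs within the OAS family and within PARP and DTX3L are all positive, and the rows of Rsad2, Isg15 and Ifi35 are mostly negative.

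Outside the members, the genes whose deviations were most like the members' mean over the 12 specimens were H2-T24 (r = 0.96), a class I histocompatibility gene, Slamf6 (0.95), a receptor of lymphocytes, and Arhgap12 (0.95), followed by Uhrf2 and Gnb4 (0.93 each). The other 5 of the 10 most alike, Snx2, Zbtb1, Pyhin1, 5730455P16Rik and Gm3604, were at 0.92. Against vehicle H2-T24 had log2 differences of -0.68, -0.69 and -0.57 in the order BTK inhibitor, PI3K inhibitor and combination. Pyhin1, of the same interferon-inducible family as Ifi203, had -0.42, -0.87 and -0.64, and Snx2 was near 0 with -0.13, -0.02 and -0.09. Others did not share the members' direction: Gnb4 had 0.29, 0.89 and 0.37, Gm3604 0.07, 0.73 and 0.87, Slamf6 0.09, -0.39 and 0.08, and Uhrf2 -0.04, 0.06 and 0.26.

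The pathway upstream was read from lists of its parts. None of 21 interferon ligand genes had enough counts to be tested. Of 9 genes for receptors and JAK kinases, 4 fell with the PI3K inhibitor (5.82% of all tested genes), all 9 were negative (50.5%) and the median was -0.76. Ifnar1, a subunit of the type I receptor, went from 76.8 ± 3.06 CPM to 41.5 ± 4.65 (log2 -0.89 ± 0.22 SE). Its partner Ifnar2 had a difference of -0.09 ± 0.23. The kinase genes Jak1 (log2 -1.11 ± 0.30 SE) and Tyk2 (-1.05 ± 0.28) fell as well, and so did the type III receptor gene Ifnlr1 (-1.32 ± 0.26). With the gene length offset none of these calls held, and the values were -0.15 for Ifnar1, -0.56 for Jak1, -0.54 for Tyk2 and -1.01 for Ifnlr1. The calls of these 4 genes, Irf7 and Ptpn1 also ended without any 1 of the same 8 specimens as those of the members.

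Of 8 transcription factors of the pathway 1 fell with the PI3K inhibitor (5.82% of all tested genes). This was Irf7, which drives interferon genes and is itself induced by interferon, at 87.9, 73.7 and 109 CPM in vehicle, 32.4, 41.8 and 57.7 CPM with the BTK inhibitor, 48.1, 35.8 and 53.9 CPM with the PI3K inhibitor and 46.5, 48.4 and 34.1 CPM with the combination. Its differences were -1.03 ± 0.28 with the BTK inhibitor, -0.97 ± 0.28 SE with the PI3K inhibitor, then -1.07 ± 0.28 for both together, and with the length offset -1.14, -1.27 and -1.09. Its call with the PI3K inhibitor (adjusted p = 0.0450 in edgeR's quasi-likelihood F-test, Benjamini-Hochberg adjusted) ended without PI3K inhibitor replicate 7 too. Of the 22 alternative settings, leaving out specimens included, 11 ended this call. Irf9, which joins Stat2 in the complex, had a difference of -0.52 ± 0.22 with the PI3K inhibitor and did not pass. Of 7 inhibitors of the pathway 1 fell with the PI3K inhibitor (5.82% of all tested genes), the phosphatase gene Ptpn1 (log2 -0.97 ± 0.26 SE). The call of Ptpn1 ended in 10 of the 22 alternative settings. Of 12 genes that induce interferon, such as sensors and their adaptors, 0 passed edgeR's quasi-likelihood F-test (Benjamini-Hochberg adjusted) with the PI3K inhibitor. All 12 were negative (50.5% of all tested genes) with a median of -0.49, and 6 were lower at an unadjusted p under 0.05 (17.6%). DESeq2 called 2, where 12.7% of all tested genes were called lower, and limma voom 5, where 18.4% were.

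A further 42 interferon-responsive genes outside the members had a median of -0.50 with the PI3K inhibitor, with 31 negative and 7 that fell, against 50.5% and 5.82% of all tested genes. The 7 were Ifi203, Trim14, Ddx60, Helz2, Znfx1, Slfn5 and Slfn8, of which 0 passed with the gene length offset. They did not move as 1 group: Siglec1, a macrophage receptor, was at the low end with -2.32 and Ube2l6, the conjugating enzyme for Isg15, at the high end with 1.13. Their medians were -0.45 with the BTK inhibitor and -0.41 for both together. With both, 38 of 42 were negative (49.8% of all tested genes), 0 were called by edgeR (0%) and 9 were lower at an unadjusted p under 0.05 (1.51%). Neither the BTK inhibitor nor the combination gave a gene of these lists that passed that edgeR test.

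Markers of cell types also differed between these groups, though edgeR called 0 of them with the BTK inhibitor or the combination (0% of all tested genes). Marker values are given without the gene length offset. Of 12 monocyte markers 11 were negative with the PI3K inhibitor (50.5% of all tested genes), with a median of -0.83. EdgeR called 4 of them lower (5.82% of all tested genes). Their summed level was 2655 to 3094 CPM in vehicle and 1541 to 2025 with the PI3K inhibitor. It was 1844 to 2637 CPM with the BTK inhibitor and 1994 to 2325 for both together, and no monocyte marker was at 0. The 8 markers of plasmacytoid dendritic cells summed to 101 to 166 CPM in vehicle and to 136 to 274, 131 to 177 and 122 to 175 CPM with the BTK inhibitor, the PI3K inhibitor and both. Both ends of the range were above those of vehicle in each. The top of the BTK inhibitor range was replicate 5, where Tcf4 was at 128 CPM against 37.1 and 52.7 in replicates 4 and 6. In the same order 1, 3 and 1 of the 8 were negative (51.2%, 50.5% and 49.8% of all tested genes), with medians of 0.57, 0.23 and 0.22. The 11 measured neutrophil markers summed to 87199 to 113158 CPM in vehicle, 82606 to 216011 with the BTK inhibitor, 101765 to 199443 with the PI3K inhibitor and 59996 to 76804 for both together, where all 11 were negative. Of the 11, 6 were negative with the BTK inhibitor (median -0.24) and 7 with the PI3K inhibitor (median -0.31). With the PI3K inhibitor 2 were called lower (5.82% of all tested genes) and 0 higher (4.84%). Most of these markers thus did not share the higher mean sum of the single-inhibitor groups. The 8 B-lineage markers summed to 110 to 217 CPM in vehicle, 151 to 441 with the BTK inhibitor, 161 to 205 with the PI3K inhibitor and 178 to 231 for both together, and all 8 were positive with the BTK inhibitor (median 1.19). Erythroid markers summed to 711 to 2627 CPM in vehicle, 1847 to 2716 with the BTK inhibitor, 2523 to 5200 with the PI3K inhibitor and 3516 to 3842 for both together. Of the 8 tested erythroid markers, 0 were negative with the PI3K inhibitor (50.5% of all tested genes), with a median of 1.29. EdgeR called 4 of these higher (4.84%) and 0 lower (5.82%). For both together 0 were negative (49.8%, median 1.10), and with the BTK inhibitor 2 were (51.2%, median 0.48). In bulk RNA, fewer cells of a type and less RNA per cell cannot be told apart, and the part of these marker changes in the members' differences was not tested.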

How the data were processed

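RNA-seq libraries of bone marrow mononuclear cells were made with a SMART-Seq low-input kit and Nextera XT, per the labels' protocols. That preparation does not mark strand, so reads of overlapping antisense genes cannot be separated. The authors deposited raw whole-number gene counts, made with STAR and featureCounts on mm10, per the submitters' processing notes (versions not stated there). The table has 1 column for each of 12 specimens, against 24 listed samples, and replicates differed beyond sampling noise (chi-square 21.7 to 671 per degree of freedom).

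Counts were fitted in R 4.3.3 with edgeR 4.0.16 (filterByExpr with a smallest count of 10 and a total of 15, TMM, 1 group-means model, robust quasi-likelihood tests, Benjamini-Hochberg adjustment over 12742 genes at 0.05). The test was tried on simulated counts. Log2 CPM used a prior count of 2. The 95% intervals are from the same fit. Alternatives used DESeq2 1.42.0, limma 3.58.1 (voom), other scaling and filters, a gene length offset (spline with 5 degrees of freedom), Rn45s left out, only the groups compared, and each specimen left out. The members, families and pathway lists were chosen with earlier results of these data known. Specimen values are given for up to 2 members per family with the smallest p against vehicle and for the family's highest level per length. A gene of the pathway lists is not reported here. Oas2, Oas3, Ifit1, Rsad2 and Samd9l were added after their values were seen.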

Additional observations from a re-analysis of the deposited data

Results flagged for a closer look

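For 8 members the effect of 1 inhibitor differed with and without the other by the interaction term of edgeR's quasi-likelihood F-test (Benjamini-Hochberg adjusted). The interaction was 2.39 for Oas2 (adjusted p = 0.0255 in this edgeR test), 1.78 for Oasl2 (0.026), 1.73 for Parp14 (0.0221), 1.71 for Stat2 (0.0286), 1.67 for Oas3 (0.0261), 1.58 for Ddx58 (0.0237), 1.38 for Dtx3l (0.0334) and -1.43 for Ifi35 (0.0302). Over all tested genes 12% had a positive and 15.6% a negative interaction past the threshold. The 7 members with a positive value are among the 19 longer ones, and with the gene length offset none of the 8 passed (adjusted p from 0.0794 to 0.379 in the same edgeR test).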

How the results depend on the processing

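No paired analysis was possible because the specimen numbers 1 to 12 are not shared between groups. Against vehicle the members' median stayed negative under all 22 other settings in each of the 3 comparisons; what moved was the number of calls. With the BTK inhibitor, members called lower numbered 0 by edgeR, 4 by DESeq2, 30 by limma voom and 0 to 24 when 1 specimen was left out, with medians then from -1.10 to -0.60. With the PI3K inhibitor they numbered 8 by edgeR, 16 by DESeq2, 29 by limma voom, 0 with the gene length offset, 21 with the offset but no BTK inhibitor replicate 5, 19 with only the groups compared, 0 with Y-linked presence as a covariate (chosen after seeing the data) and 0 to 20 when 1 specimen was left out. With the combination they numbered 0 by edgeR, 5 by DESeq2 and 24 by limma voom. For the combination against the BTK inhibitor members called lower numbered 1 by DESeq2, 6 by limma voom and 0 to 1 when 1 specimen was left out, and members called higher 0, 7 and 0 to 7. For the combination against the PI3K inhibitor they were 1, 10 and 0 to 1 lower and 0, 6 and 0 to 1 higher, and 6 lower and 6 higher with only these groups. For the mean of the treated groups they were 19, 33 and 0 to 27, and 15 with the offset and without replicate 5. For the interaction, members called higher went from 7 to 17 by limma voom, 0 with the offset, with or without replicate 5, and 0 to 15 when 1 specimen was left out, and those called lower from 1 to 0 with the offset, with or without replicate 5, and to 0 to 2 when 1 specimen was left out, with medians from 0.51 to 1.16. The cause was not tested. Calls over all tested genes moved with the settings too. Counts given here without a share of all tested genes show only how the calls moved, and are not a result about the members.

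Among the members against vehicle and the named pathway genes, signs turned only for differences that had not passed in edgeR. With the BTK inhibitor Eif2ak2 (0.13) went to -0.89 by limma voom, -0.32 with the offset and without replicate 5, -0.47 without replicate 5 (-0.47 to 0.498 over the specimens left out) and -0.020 with the Y-linked covariate. Isg15 (0.29) went to -0.72 with the offset, -0.96 with the offset and without replicate 5, and -0.36 without replicate 5 (-0.36 to 0.66 over the specimens left out). Ifi35 (0.50) went to -0.17 with the offset and without replicate 5, as Herc6 (-0.55) did to 0.067, Rsad2 (-0.33) to 0.039 with the offset, and Ifi27l2a (-0.42) to 0.048 without vehicle replicate 3 (-0.86 to 0.048 over the specimens left out). With the PI3K inhibitor, with the offset and with the offset and without replicate 5, Isg15 (0.91) went to -0.20 and -0.19, Ifi35 (0.50) to -0.11 and -0.10, Herc6 (-0.51) to 0.043 and 0.041, and Ifnar2 (-0.09) to 0.054 and 0.053. Leaving out 1 specimen took Rsad2 (0.11) to between -0.19 and 0.504 (-0.15 without vehicle replicate 1, -0.081 and -0.19 without PI3K inhibitor replicates 8 and 9) and Xaf1 (-0.24) to between -0.49 and 0.0013. With the combination Rsad2 (-0.15) went to 0.16 by limma voom and 0.096 without vehicle replicate 2 (-0.40 to 0.096 over the specimens left out), and Herc6 (-0.05) to 0.039 and 0.019 without vehicle replicate 3 and combination replicate 12 (-0.14 to 0.039). The 95% interval of a difference between groups, which takes in the spread between replicates as well as counting error, was at least 0.47 wide on either side.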
